A study of Mus musculus with 4 samples.

Results

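The genes described here are 10 of the purinergic and adenosine signalling system, taken as given from a list of symbols and found in the count table by their Ensembl identifiers in GENCODE M21. They are the adenosine receptors Adora2a, Adora2b and Adora3, the ectonucleotidases Entpd1 and Nt5e, the ATP-gated channels P2rx4 and P2rx7, and the nucleotide receptors P2ry6, P2ry12 and P2ry14. All 10 were found among the 54146 genes of the table, and all 10 were among the 14688 genes with enough counts to be tested. The RNA came from tumor associated macrophages (TAMs), sorted as live CD11b+F4/80+ cells after CD45 bead enrichment from MCA205 tumors. MCA205 is a fibrosarcoma cell line, injected s.c. into the flank of female C57BL/6 mice aged 8 to 16 weeks, so both groups carried the same tumor. Control mice (labelled vehicle) were compared with mice given propranolol, a nonselective blocker of beta-adrenergic receptors, at 0.5 g/L in the drinking water from the day of inoculation, with 2 libraries of poly-adenylated RNA per group. The question put to these libraries is which transcripts of the sorted cells differ with the drug. The study calls the libraries biological replicates, but the sources used here do not say whether a library came from 1 mouse or from several, so the p-values measure only the spread between these libraries. Total counts were 13798249 and 23018142 in control replicates 1 and 2, and 39818103 and 16424081 in propranolol replicates 1 and 2, so that a level of 1 CPM (the counts-per-million scale, with totals multiplied by TMM factors) stood for between 14.8 and 36.4 counts.

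ATP and other nucleotides leave stressed or dying cells and are read by macrophages as danger signals through P2X channels and P2Y receptors. CD39, the product of Entpd1, removes phosphates from ATP and ADP to give AMP, and CD73, the product of Nt5e, turns AMP into adenosine. Adenosine then acts on G protein-coupled receptors, of which those encoded by Adora2a and Adora2b raise cyclic AMP, as beta-adrenergic receptors do, and that encoded by Adora3 lowers it. In tumors the system is known for the shift from inflammatory ATP to adenosine, which dampens T cells and macrophages.

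In brief, 5 of the 10 genes changed between the groups, 3 higher and 2 lower in TAMs from propranolol treated mice. Adora2b, the low-affinity adenosine receptor, had the largest change and was 3.17-fold higher. P2ry6, the UDP receptor, was 1.77-fold higher, and Nt5e was 1.504-fold higher, at the edge of the threshold. P2ry12, a receptor of ADP, was 1.80-fold lower, and P2ry14, a receptor of UDP-glucose, was 1.71-fold lower. The calls of all 3 P2Y receptors ended when a trend with the GC content of genes was removed, as given below. Changed here means more than 1.5-fold with an adjusted p under 0.05 in the edgeR quasi-likelihood test (Benjamini-Hochberg over all tested genes). By that rule 27.8% of all tested genes changed, with 12.2% of all tested genes higher and 15.6% lower. The groups did not overlap in 9 of the 10 genes, 4 higher and 5 lower after propranolol, against 72.6% of all tested genes. The median log2 fold change of the 10 genes was -0.03, and that of all tested genes was -0.02. The number of libraries is small: an exact permutation test of 2 against 2 cannot give a two-sided p below 0.333 for a single gene.

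The promoters of 8 of the 10 genes could be matched to RefSeq windows on GRCm38.p6, which reach from 250 bases before to 50 bases after a start. Adora2a and P2ry6 were not matched. The 13 windows were searched on both strands for the cyclic AMP response element (TGACGTCA), its part TGACG, the hypoxia response element core (ACGTG), the AP-1 element (TGANTCA) and the GC box (GGGCGG). Of all 32851 windows of the same length, 1.79% held the full cyclic AMP element, 20.8% its part, 19.6% the hypoxia core, 7.81% the AP-1 element and 35.7% the GC box. None of the 13 windows held the full cyclic AMP element, while its part stood in both Entpd1 windows and at 2 places in that of P2rx4. The GC box stood at 6 places in the window of Adora2b, at 4 in that of Nt5e, at 2 in 1 of the 2 of P2rx7 and at 1 in that of P2rx4. An AP-1 element stood in the windows of Adora3, in 1 of the 2 of P2rx7 and in 2 of the 4 of P2ry14. The stretches before the start are shown for the genes with the largest rise and the largest fall, which differ in their base composition. In that of Adora2b, chr11:62248734-62248983 on the plus strand, capitals mark 6 GC boxes, and in that of P2ry12, chr3:59262986-59263235 on the minus strand, capitals mark a palindrome that reads as the hypoxia core on either strand.
Adora2b: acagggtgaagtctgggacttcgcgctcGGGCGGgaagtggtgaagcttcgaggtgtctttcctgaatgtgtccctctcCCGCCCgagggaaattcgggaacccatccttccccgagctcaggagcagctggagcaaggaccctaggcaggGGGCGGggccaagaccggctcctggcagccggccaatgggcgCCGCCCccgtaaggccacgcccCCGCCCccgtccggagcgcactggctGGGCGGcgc
P2ry12: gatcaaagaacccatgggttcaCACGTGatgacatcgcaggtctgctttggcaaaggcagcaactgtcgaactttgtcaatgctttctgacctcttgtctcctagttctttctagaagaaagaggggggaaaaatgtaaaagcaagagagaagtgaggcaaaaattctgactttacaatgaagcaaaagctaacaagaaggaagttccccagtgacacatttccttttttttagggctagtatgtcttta
The GC content of the whole window was 70.0% for Adora2b and 42.3% for P2ry12. A match of letters is a description of the sequence and no evidence of a bound factor.

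The sorted cells carried the markers of macrophages. Lyz2, the lysozyme of myeloid cells, was the most abundant of the macrophage list, at 5889 and 5226 CPM in the control and 7569 and 5961 CPM in the propranolol libraries. Adgre1, which encodes F4/80, had 975 to 1008 CPM in the control and 1100 to 1151 CPM in the propranolol libraries. The summed level of the 10 macrophage genes was 16840 and 15900 CPM in the control and 20480 and 18570 CPM in the propranolol libraries. None of these genes was called lower (median log2 fold change 0.31), beside 15.6% of all tested genes lower and 12.2% higher. The groups did not overlap in 9 of the 10, 8 higher and 1 lower, beside 72.6% of all tested genes. The lower 1 was C1qa, at 4133 and 4140 CPM in the control and 3825 and 3478 CPM in the propranolol libraries. Its log2 fold change of -0.18 did not pass. Csf1r, the receptor of the macrophage growth factor, and Cd14 were higher after propranolol, with log2 fold changes of 0.59 and 0.68. Both were under the fold threshold with the GC correction described below, at 0.32 and 0.50, and on library totals alone, at 0.36 and 0.45, as was Csf1r with upper-quartile factors, with a stricter filter and without propranolol replicate 2 (0.55).

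Markers of other cells moved with the groups. The counts below stand beside 12.2% of all tested genes higher and 15.6% lower. The 10 T cell genes summed to 273 and 318 CPM in the control but to 141 and 76.4 CPM in the propranolol libraries, with 9 of 10 lower (median log2 fold change -1.64), among them Cd8a, its most abundant, and Lck, Cd3e and Cd3g. The 7 NK cell genes summed to 114.0 and 119 CPM against 46.6 and 23.0 CPM, with all 7 lower (median -1.83), among them Prf1, its most abundant, and Klrd1, Gzma and Klre1. The 10 collagen and stroma genes that fibroblasts and sarcoma cells share summed to 3351 and 1276 CPM in control replicates 1 and 2 against 720.2 and 752 CPM, with 8 of 10 lower (median -1.96). Control replicate 1 thus stood apart from the other 3 libraries, with 1294 CPM of Col3a1 against 423 CPM in control replicate 2, and Col1a1, Col1a2 and Postn were also highest there. Without that library the log2 fold changes of Col1a1 and Col1a2 went from -1.29 and -1.20 to -0.46 and -0.39, under the threshold. Col3a1 (-0.90) and Postn (-1.40) were still called lower, and the same 5 purinergic genes changed.

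The remaining lists were smaller or closer between the groups, and their counts stand beside the same 12.2% higher and 15.6% lower of all tested genes. The neutrophil list summed to 180 and 198 CPM in the control and 355 and 381 CPM in the propranolol libraries. Csf3r was its most abundant gene, and S100a9, Mmp9, S100a8 and Retnlg were among the 5 of 7 tested genes that were higher (median 1.09). The other 3 genes of this list, Ly6g, Ngp and Camp, had too few counts to be tested. Ly6g had 0 and 0.08 CPM in the control and 0.47 and 0.52 CPM in the propranolol libraries. The groups overlapped for Ngp, at most 0.47 CPM, and for Camp, at most 0.24 CPM. Of the monocyte list, F13a1, its most abundant gene over the 4 libraries, Plac8 and Chil3 were higher among 6 genes (median 0.53). Ccr2, the chemokine receptor of inflammatory monocytes and the most abundant of the list in the control libraries, had 454 and 397 CPM there and 306 and 262 CPM after propranolol (log2 fold change -0.58, adjusted p = 0.00249), just under the fold threshold. The list summed to 951 and 855 CPM in the control and 1096 and 946 CPM in the propranolol libraries. B cell genes summed to at most 20.3 CPM, with Cd79b, the most abundant, higher and Ms4a1 lower. Dendritic cell genes summed to at most 27.98 CPM, with Ccr7 the most abundant and Xcr1 and Clec9a lower. Mast cell and eosinophil genes summed to at most 12.7 CPM, with Kit, the most abundant, lower and Fcer1a and Epx without counts. Endothelial genes summed to 50.4 and 47.8 CPM in the control and 63.0 and 61.5 CPM in the propranolol libraries, with Pecam1 the most abundant and Cdh5 higher. The calls of Cdh5 and Ms4a1 were lost in 9 and 8 of 15 refits, which changed the test, scaling, filter, libraries, block or GC correction. Besides the stricter glmTreat test, the calls of F13a1 and Plac8 were lost without propranolol replicate 1 (0.55 and 0.58) and on library totals alone (0.39 and 0.56), and that of F13a1 also with upper-quartile factors. The call of Cd79b was lost with the GC correction and on library totals alone, that of Xcr1 with the GC correction, that of Clec9a without control replicate 2 (-1.15, adjusted p = 0.0507) and that of Retnlg on library totals alone. Lck, Col1a1 and Col1a2 missed the adjusted p in DESeq2, and Postn with the GC correction, though not with that correction and the replicate block. In bulk RNA, fewer cells of a type cannot be told apart from less RNA per cell, and the part of these other cells in the changes of the purinergic genes was not tested.

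**Figure D1:**
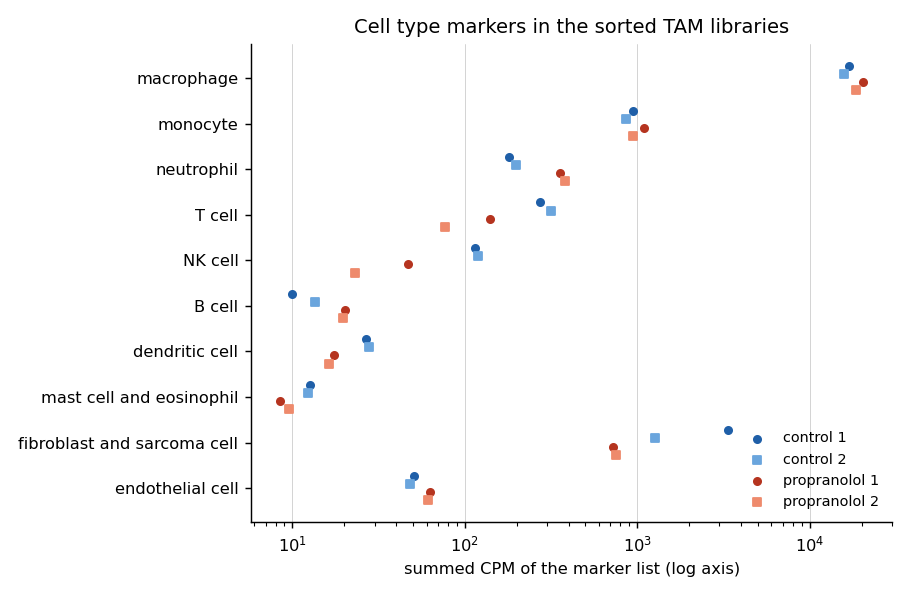
Summed CPM of 10 lists of cell type markers (log axis) in the 4 libraries, 1 symbol per library. Macrophage genes dominate all 4, and the T cell and NK cell sums lie lower in both propranolol libraries. The neutrophil sum lies higher there, though not each gene of that list. The fibroblast and sarcoma cell genes reach 3351 CPM in control replicate 1.

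The GC content of a gene also moved with the result. Across 14681 tested genes, which are not independent replicates, the log2 fold change followed the GC content with a Spearman correlation of 0.577. A second fit therefore removed from each library a smooth trend with GC content. In this fit 12.6% of all tested genes changed, and 3 of the 10 purinergic genes did, all of them higher: Adora2b, Nt5e and P2rx4. Whether the trend arose in the cells or in the libraries cannot be told apart with these data, so both values are given for each of the 10 purinergic genes below.

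**Figure D2:**
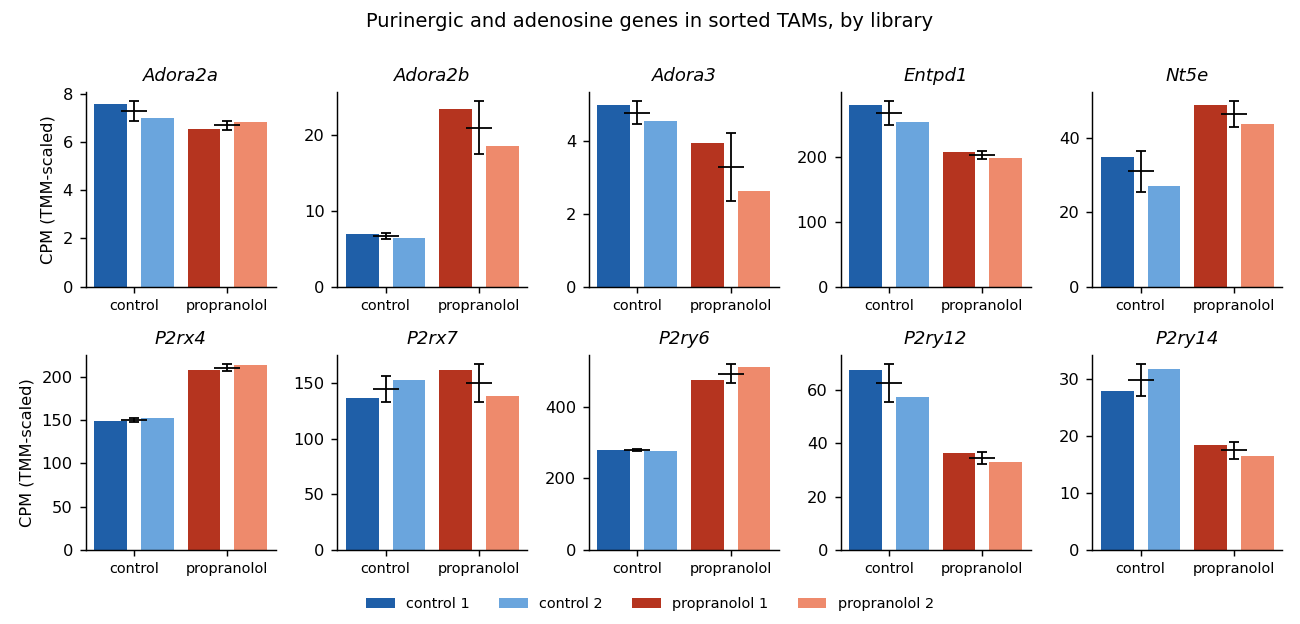
CPM of the 10 purinergic genes in each library (bars, 2 per group) with the group mean and SD (black line and whiskers, n = 2). Adora2b, Nt5e, P2rx4 and P2ry6 are higher in both propranolol libraries, Adora2a, Adora3, Entpd1, P2ry12 and P2ry14 are lower in both, and the groups overlap for P2rx7.

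Among the adenosine receptors, Adora2b stood out. The gene (ENSMUSG00000018500.2) lies on chr11:62248984-62266453 of GRCm38, plus strand, and encodes the A2B receptor, which responds to the high adenosine levels of inflamed and hypoxic tissue. It had 6.95 and 6.38 CPM in the control and 23.4 and 18.5 CPM in the propranolol libraries, from 103, 160, 850 and 282 counts. The lower of the propranolol libraries was well above both control libraries. The mean rose from 6.66 ± 0.402 to 20.9 ± 3.47 CPM (SD, n = 2), a log2 fold change of 1.66 with an SE of 0.19 (edgeR adjusted p = 0.000207). The GC correction gave 1.63 (adjusted p = 0.000631), at a GC content of 50.4%, close to the median of 49.6% of all tested genes. Adora2b was called higher in all 15 refits, with log2 fold changes from 1.43 to 1.85.

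Adora2a (ENSMUSG00000020178.6, chr10:75316877-75334784, plus strand) encodes the high-affinity adenosine receptor. Its levels of 7.55 and 6.98 CPM in the control and 6.55 and 6.81 CPM in the propranolol libraries were close to each other. Both propranolol values were below both control values, by little. The log2 fold change of -0.12 (95% interval -0.62 to 0.38, adjusted p = 0.701) did not pass, and the lower end of the interval lies just past a 1.5-fold fall. With the GC correction it was -0.45 (95% interval -0.94 to 0.04, adjusted p = 0.164).

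Adora3 (ENSMUSG00000000562.5, chr3:105870858-105908926, plus strand) encodes the A3 receptor and was the lowest of the 10 genes. It had 4.99 and 4.54 CPM in the control and 3.93 and 2.62 CPM in the propranolol libraries, the last from 40 counts. Both propranolol libraries were lower, but the pair of them differed from each other by more than the nearer of them from the control. The log2 fold change was -0.51 (95% interval -1.22 to 0.19, adjusted p = 0.223), so that neither no change nor a fall beyond 1.5-fold could be set aside at this depth, and with the GC correction it was -0.44 (adjusted p = 0.344). Of its exon bases, 20.9% are shared with Tmigd3 on the same strand, a gene with 3 to 7 counts per library.

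The balance between the adenosine receptors differed between the groups. On the transcripts-per-million scale (TPM, counts per exon length, scaled to the same sum in each library), which allows levels of different genes to be compared, Adora2b made up 49.7% of the 3 receptors together in each control library. It made up 79.9% and 77.4% in the propranolol libraries. The share of Adora2a was 32.6% and 32.8% in the control libraries and 13.5% and 17.2% after propranolol, and that of Adora3 was 17.7% and 17.5% against 6.65% and 5.43%. The TPM ratio of Adora2b to Adora2a was thus 1.53 and 1.52 in the control libraries and 5.93 and 4.50 after propranolol, with no overlap between the groups. Adora1, the remaining adenosine receptor, had between 0 and 7 counts and was not tested.

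The ectonucleotidases had fitted changes of opposite sign, except with the GC correction, where Entpd1 was at 0.01. Entpd1 (ENSMUSG00000048120.16, chr19:40612366-40741602, plus strand) was the second most abundant of the 10 genes in TPM. It had 280 and 254 CPM in the control and 207 and 199 CPM in the propranolol libraries, and the groups did not overlap. The mean was 267 ± 18.5 CPM in the control and 203 ± 5.94 CPM in the propranolol group, a log2 fold change of -0.39 with an SE of 0.10 (adjusted p = 0.00967), under the 1.5-fold threshold. With the GC correction it was 0.01 (adjusted p = 0.944), at a GC content of 44.7%, while on library totals alone it was -0.63 and called lower.

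Nt5e (ENSMUSG00000032420.8, chr9:88327197-88372092, plus strand) had 34.7 and 27.1 CPM in the control and 48.7 and 43.8 CPM in the propranolol libraries. Both propranolol libraries were higher, although the control libraries also differed from each other. The mean rose from 30.9 ± 5.39 to 46.2 ± 3.47 CPM, a log2 fold change of 0.59 with an SE of 0.14 (adjusted p = 0.00876), and with the GC correction 0.75 (adjusted p = 0.00542). The fold change sat on the threshold, and the call was lost with upper-quartile factors (0.53), with a stricter filter on low counts (0.57), on library totals alone (0.36, adjusted p = 0.0665), without control replicate 2 (0.43, adjusted p = 0.0611) and without propranolol replicate 1 (0.51, adjusted p = 0.0127). The TPM ratio of Entpd1 to Nt5e was 12.4 and 14.4 in the control libraries and 6.56 and 7.01 after propranolol. Transcripts of the enzyme that ends at AMP thus exceeded those of the enzyme that makes adenosine in all 4 libraries, by less in the propranolol group.

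The P2X channels are neighbours on chromosome 5, with 16111 bases between P2rx7 (ENSMUSG00000029468.17, chr5:122643911-122691432) and P2rx4 (ENSMUSG00000029470.15, chr5:122707544-122729738), both on the plus strand. P2rx4 encodes an ATP-gated cation channel of endosomes, lysosomes and the cell surface. It had 149 and 153 CPM in the control and 208 and 214 CPM in the propranolol libraries, with very close replicates and a clear gap between the groups. The log2 fold change was 0.48 with an SE of 0.09 (adjusted p = 0.00267), a 1.40-fold difference that stayed under the threshold. With the GC correction it was 0.61 (adjusted p = 0.00192) and called higher, and on library totals alone it was 0.25 (adjusted p = 0.0563).

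P2rx7 encodes the channel that opens at high ATP and triggers the NLRP3 inflammasome. It had 136 and 153 CPM in the control and 162 and 138 CPM in the propranolol libraries, and it was the only one of the 10 genes whose groups overlapped. The log2 fold change of 0.06 had a 95% interval from -0.20 to 0.31 (adjusted p = 0.727), which holds no change of 1.5-fold, and was 0.05 with the GC correction (adjusted p = 0.783). Its sign turned with upper-quartile factors, on library totals alone and without propranolol replicate 1. The TPM ratio of P2rx7 to P2rx4 was 1.08 and 1.18 in the control libraries and 0.916 and 0.761 after propranolol, above 1 in both libraries of the former and below 1 in both of the latter.

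All 3 P2Y receptors changed, P2ry6 higher and P2ry12 and P2ry14 lower, although none of these calls held with the GC correction. P2ry6 (ENSMUSG00000048779.5, chr7:100937630-100974649, minus strand) encodes the UDP receptor, known for phagocytosis and chemokine release, and was the most abundant of the 10 genes. It had 280 and 277 CPM in the control and 473 and 510.3 CPM in the propranolol libraries, and the groups were far apart relative to their spread. The mean rose from 278 ± 2.21 to 492 ± 26.3 CPM, a log2 fold change of 0.82 with an SE of 0.09 (adjusted p = 0.000204). With the GC correction it was 0.50 (adjusted p = 0.00437), under 1.5-fold, at a GC content of 55.9%.

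P2ry12 (ENSMUSG00000036353.13, chr3:59216272-59262871, minus strand) encodes the ADP receptor of platelets and of resting microglia. It had 67.7 and 57.6 CPM in the control and 36.3 and 32.9 CPM in the propranolol libraries. Both propranolol libraries were clearly below both control libraries. The mean fell from 62.7 ± 7.12 to 34.6 ± 2.34 CPM, a log2 fold change of -0.85 with an SE of 0.13 (adjusted p = 0.000668). P2ry14 (ENSMUSG00000036381.13, chr3:59113855-59153618, minus strand) encodes the receptor of UDP-glucose and related sugars. It had 27.9 and 31.8 CPM in the control and 18.5 and 16.4 CPM in the propranolol libraries, again without overlap. Its mean fell from 29.9 ± 2.75 to 17.5 ± 1.45 CPM, a log2 fold change of -0.77 with an SE of 0.14 (adjusted p = 0.00214).

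Both falls ended with the GC correction. The log2 fold change was then 0.18 for P2ry12 (95% interval -0.08 to 0.44, adjusted p = 0.287) and 0.16 for P2ry14 (95% interval -0.14 to 0.46, adjusted p = 0.424). These genes have the lowest GC contents of the 10, at 38.6% and 39.4%. On library totals alone, a scaling that moved the median of all tested genes to -0.25, they remained lower at -1.09 and -1.01, and P2ry6 (0.59) and Adora2b (1.43) remained higher.

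**Figure D3:**
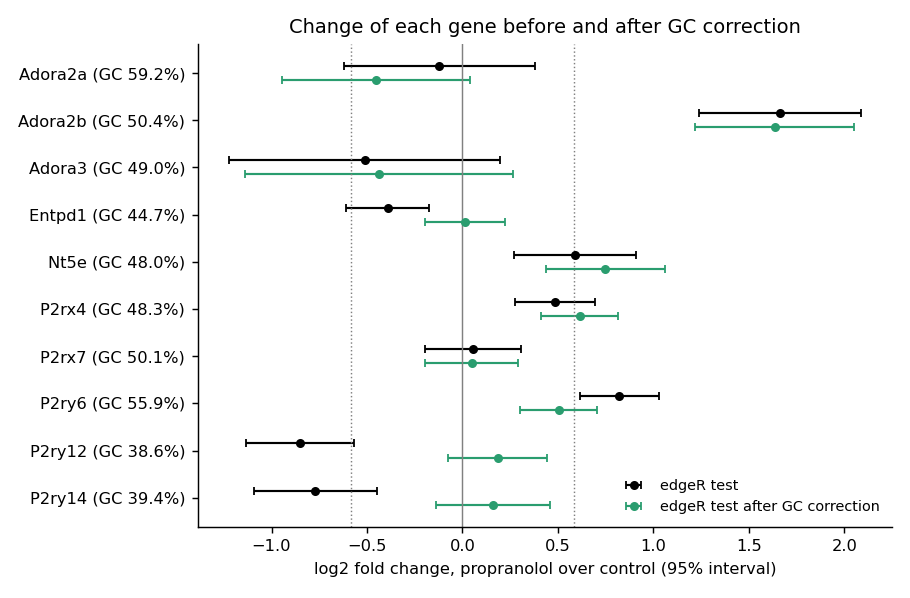
Log2 fold change of each purinergic gene with its 95% interval, from the edgeR test (black) and after the GC correction (green). Dotted lines mark 1.5-fold. Adora2b stays near 1.6 in both fits, while P2ry12 and P2ry14 move from -0.85 and -0.77 to 0.18 and 0.16.

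P2ry12 and P2ry14 lie 62653 bases apart in a cluster of P2Y-like receptor genes inside Med12l, a gene on the opposite strand. P2ry12 shares 9 exon bases with Med12l and P2ry14 shares none, and Med12l itself did not pass the test (log2 fold change -0.36, adjusted p = 0.391). P2ry13, another ADP receptor, lies 5389 bases from P2ry12 and had 50.3 and 37.4 CPM in the control and 39.3 and 41.0 CPM in the propranolol libraries. Its groups overlapped, and its log2 fold change of -0.12 (adjusted p = 0.533) did not pass. Gpr171, at the other end of the cluster and also expressed in lymphocytes, fell from 24.9 and 29.5 CPM to 13.9 and 8.64 CPM, a log2 fold change of -1.24 with an SE of 0.21 (adjusted p = 0.00136). Its GC content is low too, at 41.1%, and its value with the GC correction is not reported here.

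P2ry12 is best known as a marker of microglia, and other microglia genes had mixed values in these libraries. Tmem119 had 300.4 and 260 CPM in the control and 326 and 365 CPM in the propranolol libraries. Its log2 fold change of 0.30 (edgeR adjusted p = 0.0456) was under the fold threshold. Its GC content is high, at 59.05%, and its value with the GC correction is not reported here. Gpr34, a P2Y12-like receptor, fell from 60.5 and 46.1 CPM to 23.7 and 22.2 CPM, a log2 fold change of -1.21 (adjusted p = 0.000286), and also ended near 0 (0.02) with the GC correction. Sall1, the defining transcription factor of microglia, had between 0 and 7 counts, and Siglech, which dendritic cells share, stayed under 1 CPM.

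Within the 3 P2Y receptors, P2ry6 made up 76.9% and 79.0% of the TPM in the control libraries and 91.2% and 92.5% after propranolol. P2ry12 made up 21.1% and 18.7% in the control libraries and 7.92% and 6.77% after propranolol, and P2ry14 at most 2.37% in any library. The TPM ratio of P2ry6 to P2ry12 went from 3.65 and 4.23 to 11.5 and 13.7. These shares and ratios are not corrected for GC content, and with the GC correction the log2 fold changes of P2ry6 and P2ry12 were 0.50 and 0.18.

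The order of the 10 genes by mean TPM began with P2ry6 (320 in the control and 480 in the propranolol group) and Entpd1 (159 and 102) in both groups. In the control group P2ry12 (81.6) and P2rx7 (80.4) followed, whose libraries overlapped, and then P2rx4 (71.3). Adora2b (11.98) and Nt5e (11.9) also overlapped there, above P2ry14 (8.98), Adora2a (7.87) and Adora3 (4.24). In the propranolol group P2rx4 (84.5) stood above P2rx7 (70.7), followed by P2ry12 (38.2), Adora2b (31.9), Nt5e (15.1), Adora2a (6.14), P2ry14 (4.44) and Adora3 (2.46), with no overlap between neighbours. The exon length of P2ry14, 11059 bases, is the longest of the 10 and lowers its TPM. The order is not corrected for GC content. With the GC correction the log2 fold changes of P2ry12 and P2ry14 were 0.18 and 0.16.

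The other genes that make, sense, move or break down nucleotides and adenosine were taken from a list of 51 genes. Of these, 38 were tested, 10 were higher, 6 were lower and 22 did not pass, with a median log2 fold change of 0.05, beside 27.8% of all tested genes changed, 12.2% higher and 15.6% lower. With the GC correction 11 were higher and 1, Casp1, was lower, beside 1122 higher and 733 lower among all tested genes. Slc29a1 was not among those 11, which thus include genes that did not pass without the correction. The latter genes are not named here. On library totals alone 7 were higher and 8 lower, beside 609 higher and 3497 lower among all tested genes. Of the 13 that were not tested, P2ry4, Entpd8, Slc28a1 and Slc28a3 had no counts.

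Among other receptors, 6 of 11 were tested and 2 changed, beside 27.8% of all tested genes. P2ry2, the ATP and UTP receptor, which lies 21918 bases from P2ry6 on chromosome 7, had 10.99 and 12.6 CPM in the control and 29.3 and 30.7 CPM in the propranolol libraries. Its log2 fold change was 1.34 with an SE of 0.15 (adjusted p = 0.000182), and it was called higher in all 15 refits. P2ry10, a lysophospholipid receptor of lymphoid and myeloid cells, fell from 10.9 and 9.93 CPM to 4.65 and 3.27 CPM, with a log2 fold change of -1.37 (SE 0.25, adjusted p = 0.00199) that was -0.13 with the GC correction.

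Of the other extracellular nucleotide enzymes, 10 of 14 were tested, 2 were higher and 2 lower. Of all tested genes, 12.2% were higher and 15.6% lower. Entpd3, a relative of CD39 at the cell surface, was scarce, with 0.877 CPM in each control library and 3.11 and 4.00 CPM in the propranolol libraries (log2 fold change 2.001, SE 0.42, adjusted p = 0.00389). Entpd6, a relative in the Golgi, was higher at 36.0 and 40.7 CPM against 18.0 and 20.3 CPM, with a log2 fold change of 0.996. Entpd5, a UDPase of the endoplasmic reticulum, was lower at 15.3 and 14.5 CPM against 24.8 and 23.9 CPM (log2 fold change -0.71), and not past the fold threshold with the GC correction (-0.42). Enpp2, which encodes autotaxin and is made by stromal cells too, had 9.24 CPM in control replicate 1 but 2.43 CPM in control replicate 2 and 1.43 and 1.38 CPM in the propranolol libraries. Its log2 fold change of -2.02 (adjusted p = 0.0160) thus rested on control replicate 1, the library with the most collagen RNA, and was -0.73 without it (adjusted p = 0.344).

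Of the genes listed under adenosine uptake and breakdown, 9 of 12 were tested, 5 were higher and 1 lower, beside 12.2% higher and 15.6% lower among all tested genes. The list and the 5 include Ahcy, whose enzyme releases adenosine. Ada, the enzyme that turns adenosine into inosine, rose from 12.5 and 14.4 CPM to 27.6 and 26.2 CPM, with a log2 fold change of 0.99 (SE 0.15, adjusted p = 0.000712). Pnp, which acts next on inosine, rose from 118 and 114 CPM to 214 and 169 CPM (log2 fold change 0.73). The near copy Pnp2 had 3.9 and 4.0 CPM in the control and 4.9 and 6.0 CPM in the propranolol libraries. Whether it took up reads of Pnp was not tested. The change of Pnp was under the threshold without propranolol replicate 1 (0.55) and on library totals alone (0.49).

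Slc29a1 and Slc29a2 encode the equilibrative nucleoside transporters that carry adenosine across the cell surface. Slc29a1 was the more abundant, at 88.7 and 99.6 CPM in the control and 136 and 152 CPM in the propranolol libraries (log2 fold change 0.61), and was not past the fold threshold without propranolol replicate 2 (0.56), on library totals alone (0.38) or with the GC correction (0.31). Slc29a2 rose from 3.44 and 4.58 CPM to 8.88 and 9.56 CPM, with a log2 fold change of 1.18. Ahcy, which cleaves S-adenosylhomocysteine into adenosine and homocysteine, rose from 23.0 and 21.1 CPM to 38.6 and 34.5 CPM, a log2 fold change of 0.74 that was 0.50 on library totals alone. Dpp4, the surface protein CD26 that binds adenosine deaminase and is carried by T cells and dendritic cells, fell from 11.5 and 12.1 CPM to 5.53 and 4.19 CPM (log2 fold change -1.26). Its change missed the adjusted p with the GC correction (-0.63, edgeR adjusted p = 0.0564). With that correction and the replicate number as a block it was called lower (-0.64, edgeR adjusted p = 0.0390).

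Of the genes for the release of ATP and UDP-glucose, 6 of 7 were tested and 1 changed, beside 27.8% of all tested genes. Ugp2, the enzyme that makes the UDP-glucose sensed by P2ry14, fell from 76.5 and 61.7 CPM to 28.6 and 26.0 CPM, a log2 fold change of -1.33 (SE 0.14, adjusted p = 0.000139). At a GC content of 39.1% it was -0.35 with the GC correction (adjusted p = 0.0713). The channels Panx1 and Gja1 had log2 fold changes of -0.10 and -0.13 and did not pass.

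Of 7 genes listed for the inflammasome linked to P2rx7 and its interleukins, 2 were higher and 1 lower, beside 12.2% higher and 15.6% lower among all tested genes. Nlrp3, the sensor of the inflammasome, rose from 92.0 and 95.6 CPM to 160 and 175 CPM (log2 fold change 0.84, SE 0.10, adjusted p = 0.000253), and Pycard, its adaptor, from 63.8 and 67.6 CPM to 132 and 102 CPM (0.83, adjusted p = 0.000917). Casp1, the protease that completes it, fell from 53.4 and 54.2 CPM to 26.1 and 15.3 CPM (-1.35, SE 0.20, adjusted p = 0.000712). Casp1 was still called lower with the GC correction, at -0.62 (adjusted p = 0.0327). Il1b had a log2 fold change of 0.41 and Gsdmd of 0.55, both past the adjusted p and under 1.5-fold, and Il18 (-0.44) and Txnip (0.08) did not pass.

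**Figure D4:**
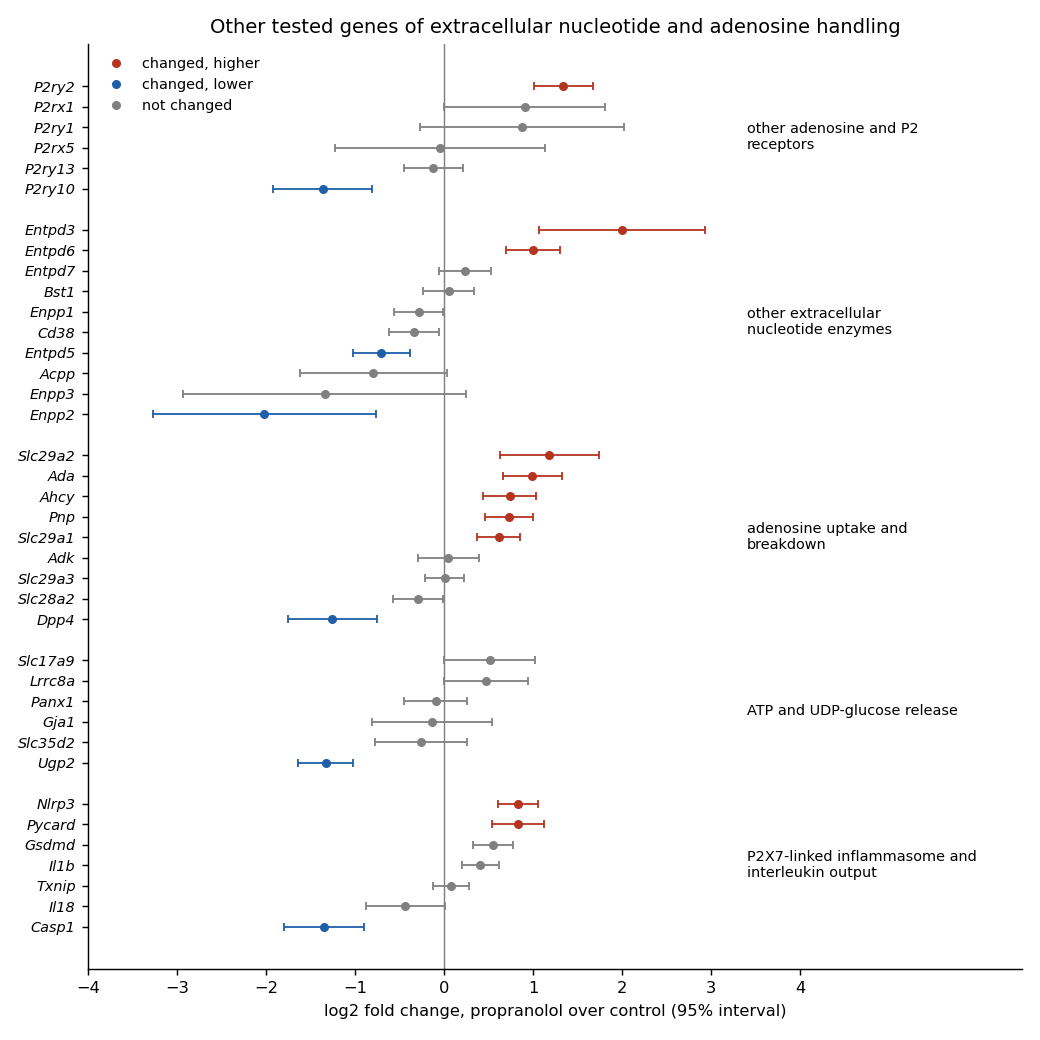
Log2 fold change with its 95% interval for the 38 other tested genes of the pathway, in 5 groups by role. Red marks genes that were changed and higher (10), blue those lower (6) and grey those that did not pass (22). Of the 6 changed genes listed under adenosine uptake and breakdown, 5 lie to the right, among them Ahcy, whose enzyme releases adenosine.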

How the data were processed

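RNA from sorted TAMs was sequenced after poly-dT enrichment with a NEBNext kit. The authors deposited raw counts of fragments per gene, without normalization. Per their processing notes, reads were aligned to mm10 with STAR 2.7.1a, filtered with SAMtools 1.9 (mapping quality above 30, per the methods) and counted on GENCODE exons with featureCounts 1.6.4. The release is not given in the sources used here. The methods list the options -p and -t exon and no strand option, so overlapping and antisense genes cannot be separated. DESeq2 1.39.0 is also named there. Columns were matched to libraries by the labels' numbers, and 0 columns were left out.

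In R 4.3.3, the 4 libraries were scaled with TMM factors (1.08, 1.09, 0.914 and 0.931), genes were kept with filterByExpr at a minimum count of 10, and the groups were compared with the edgeR 4.0.16 quasi-likelihood test without covariates, with Benjamini-Hochberg adjustment over 14688 genes. The SE comes from the coefficient and its F statistic. Positions, exon lengths (for TPM) and the GC content of the longest transcript came from GENCODE M21, and 67 genes had no match. For the GC correction, each library's departure from the mean log2 CPM was smoothed on GC content (natural spline, 5 degrees of freedom) and entered as offsets. Alternatives used DESeq2 1.42.0, limma-voom (limma 3.58.1), glmTreat, other scalings, filters and thresholds, left out each library in turn, or added the replicate number as a block. Replicates of a group differed by more than sampling noise (chi-square per degree of freedom 7.56 and 9.83). The steps were tested on simulated data.

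The genes, lists and tests were chosen with earlier results of these data known. All 10 genes are named with every library's value, as are the genes of the pathway lists that changed without the GC correction. Of each cell type list, the most abundant gene, up to 4 changed genes and genes without counts are named. Gpr171, Med12l, P2ry13, Tmigd3 and Pnp2 were named for their position or sequence, and Adgre1, Ccr2, Tmem119, Sall1 and Siglech as defining markers. Ccr2, C1qa, Ly6g, Ngp and Camp were named after their values were seen. The proteins of the receptors were not compared here, and some genes and the summed level of the microglia list are not reported here.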

Additional observations from a re-analysis of the deposited data

How the results depend on the processing

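The direction of Adora2b, Nt5e, P2rx4 and P2ry6 (higher) and of Adora2a and Adora3 (lower) was the same in all 15 refits. Among all tested genes, 4084 changed, and 1093 did so against a 1.5-fold null (glmTreat), 1855 with the GC correction, 2128 with the GC correction and the replicate block, 6204 by adjusted p alone and 728 at a log2 fold change beyond 1.5. Of the 10 purinergic genes, 5 changed, and 2 (Adora2b and P2ry6) did so by glmTreat, 3 with the GC correction, 3 with that and the block, and 1 (Adora2b) beyond 1.5. Of the other pathway genes, 16 changed, and 8 did so by glmTreat, 12 with the GC correction (11 higher, 1 lower), 14 with that and the block (11 higher, 3 lower) and 2 beyond 1.5. With the GC correction, without and with the block, the log2 fold change turned for Entpd1 (0.0119 and 0.0124), P2ry12 (0.18 and 0.18), P2ry14 (0.16 and 0.17) and Gpr34 (0.0178 and 0.0183). That of P2rx7 was -0.0048 with upper-quartile factors, -0.18 on library totals and between -0.062 and 0.195 with a library left out. The cause of these shifts was not tested.

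Library totals alone gave 609 higher and 3497 lower genes against 1798 and 2286. The replicate numbers are shared by the groups but nothing says that they pair the libraries (correlation of deviations 0.169 across 14688 genes). With the replicate block, 4362 genes, 5 purinergic genes and 16 other pathway genes changed. Leaving out a library gave 3615 to 4329 genes, 4 to 5 purinergic genes and 16 to 21 pathway genes, with the spread of its lone partner taken from the other group. Low counts widen the intervals of the scarcer genes.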
